A study of Rattus norvegicus with 4 samples.

Results

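Metallothioneins are small proteins rich in cysteine that hold zinc and copper in the cytosol and bind toxic metals such as cadmium, and the liver is a main site of their synthesis. Their genes are switched on by the zinc-sensing transcription factor MTF1, which binds short metal response elements, and are also known to respond to glucocorticoids, cytokines and fasting. Zinc enters the cytosol through transporters of the Slc39 (ZIP) family and leaves it through those of the Slc30 (ZnT) family. Here, 8 genes of this system were followed in rat liver, out of 16999 named genes analysed. They were *Mt1* and *Mt2A*, the factor *Mtf1*, the importers *Slc39a14*, *Slc39a4* and *Slc39a8*, and the exporters *Slc30a1* and *Slc30a10*. The group was picked on its TPM values, because *Mt1* and *Mt2A* were higher after anesthesia and also differed between the controls. The values of those contrasts are therefore a description, and no test was made on them.

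The data came from livers of wild type rats that breathed either 4.5% sevoflurane or 6% desflurane, which are halogenated inhalational anesthetics. In the 0 h groups the rats were killed as soon as consciousness was lost, so the controls had also inhaled the agent briefly. In the 6 h groups they were killed after 6 h under the agent. Each of the 4 groups held 1 library of total RNA, so no value has a replicate error, and the difference between the 2 controls is the only measure of how far libraries of like treatment lay apart. The controls and the anesthetized rats were killed 6 h apart, so duration of anesthesia and hour of the day cannot be told apart. The labels do not state strain, sex or age. The depth implied by the tables was between 3.50 and 5.57 Gb of aligned bases and lowest in sevoflurane 0 h, where a TPM of 2 meant a mean coverage of 4.72 per base, against 6.84 to 7.28 in the other libraries. The 8 hepatocyte markers listed, among them albumin, summed to a TPM between 94431 and 105988.

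The metallothionein genes moved over a far wider range than any other member. *Mt1*, on the minus strand of chromosome 19 from 11301991 to 11303007 (build rn6), had a TPM of 13.2 in sevoflurane 0 h, 140.4 in desflurane 0 h, 424 in sevoflurane 6 h and 649.7 in desflurane 6 h. *Mt2A*, 4958 bp away on the same strand from 11307966 to 11308740, had a TPM of 6.98, 123, 580.2 and 948 in the same order. Both genes were thus lowest in the sevoflurane control and highest after desflurane, and both 6 h libraries stood above both controls. The mean coverage per base of *Mt2A* was 16.5 in the library where it was lowest and 3450 in the one where it was highest, and that of *Mt1* went from 31.1 to 2364. Genes whose TPM averaged 1 or more over the libraries are called expressed here, and there were 9201 of them. Their levels followed the same order of libraries in 782 cases (8.5%).

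**Figure D1:**
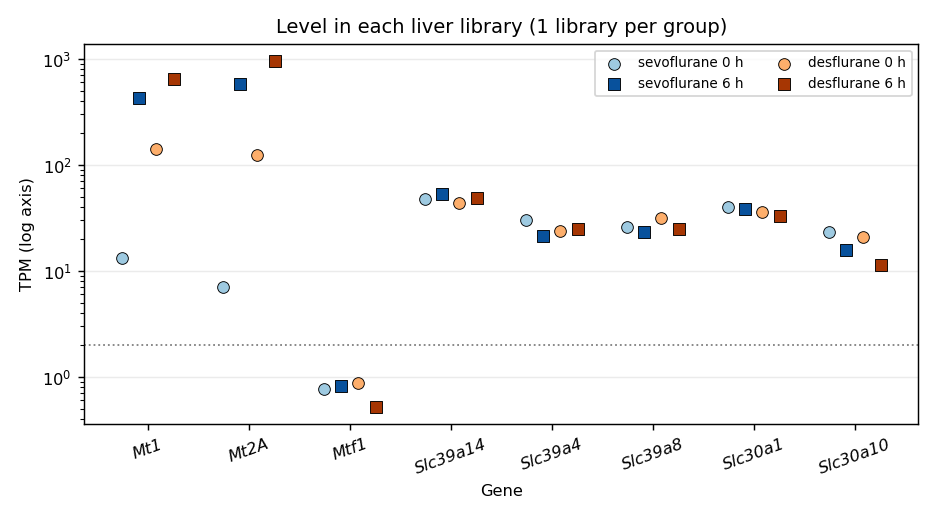
TPM (log axis) of each of the 8 genes in the 4 libraries, 1 point per library, with circles for 0 h and squares for 6 h; the dotted line marks a TPM of 2. *Mt1* and *Mt2A* span 13.2 to 649.7 and 6.98 to 948, whereas for each of the 5 transporters the highest point is at most 2.07 times the lowest and *Mtf1* stays below the line.

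The sequences just upstream of these genes were searched for the core of the metal response element. They are printed for *Mt1*, *Mt2A* and *Slc30a1*, the plasma membrane zinc exporter and a known MTF1 target, which was called in no comparison. Whether the matches have a part in the levels measured here was not tested. Each is the 250 bases before the annotated start in RefSeq (build GRCr8), 5′ to 3′ on the strand of the gene, with capitals for the core of the metal response element, searched as TGCACNC and TGCGCNC on both strands.
*Mt1* (minus strand, chr19:10832976-10833225): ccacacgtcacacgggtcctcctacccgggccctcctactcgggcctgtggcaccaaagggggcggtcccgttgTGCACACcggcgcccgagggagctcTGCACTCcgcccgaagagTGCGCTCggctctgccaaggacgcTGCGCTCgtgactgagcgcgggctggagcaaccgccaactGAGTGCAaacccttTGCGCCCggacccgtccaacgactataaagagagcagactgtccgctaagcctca
*Mt2A* (minus strand, chr19:10838709-10838958): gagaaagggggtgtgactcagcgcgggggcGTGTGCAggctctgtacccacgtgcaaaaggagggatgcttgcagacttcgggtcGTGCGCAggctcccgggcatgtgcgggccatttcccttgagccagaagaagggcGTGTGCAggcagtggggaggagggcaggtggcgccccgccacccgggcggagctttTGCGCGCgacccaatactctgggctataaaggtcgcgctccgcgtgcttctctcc
*Slc30a1* (plus strand, chr13:106021769-106022018): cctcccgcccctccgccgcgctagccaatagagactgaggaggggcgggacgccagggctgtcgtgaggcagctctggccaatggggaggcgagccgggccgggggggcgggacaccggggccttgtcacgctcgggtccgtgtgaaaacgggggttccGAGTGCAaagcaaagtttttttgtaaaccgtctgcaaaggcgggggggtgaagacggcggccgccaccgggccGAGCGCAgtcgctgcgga

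The *Mt1* window held 6 such cores, between positions -176 and -49 from the start. At least 6 were found in 9 of all 33469 windows in the table (0.0269%), and 20.6% of windows held any. The *Mt2A* window held 4 cores, from -220 to -49, a number reached by 0.266% of windows. The windows of *Slc30a1* and of *Mtf1* itself held 2 each (4.9% of windows hold as many), that of *Slc39a8* held 0, and those of *Mt3* and *Mt4*, which lie beside *Mt2A*, held 3 and 1. On both strands, the E-box CACGTG, bound by clock factors, was present once in *Mt2A* and not in the other 4 windows of the group, against 5.59% of all windows. The antioxidant response element core TGACNNNGC was present in each of these 5 windows, with 2 matches in *Mtf1*, against 10.1% of all windows. TGTTCT, which is only a part of the glucocorticoid response element (17.5% of windows), was found only in *Mtf1*. The STAT motif TTCNNNGAA (7.67%) was found only in *Slc39a8*, and the D-box TTATGNAA (3.28%) was in none of the 5. In *Mt1* and *Mt2A* none of these matches overlapped a capital stretch. A match is a run of letters and does not show that a factor was bound. Sequence outside the windows was not searched, so a missing match does not show that a gene lacks the element, the glucocorticoid one included.

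Each 6 h library was set against the control of the same agent to ask which genes differed after anesthesia. To be called, a gene needed a TPM above 2 in the higher library and a TPM ratio above 2. *Mtf1* never reached that minimum, so 7 of the 8 genes could be called. With sevoflurane, *Mt1* was 32.2 times and *Mt2A* 83.1 times its control level, or 4.91 and 6.19 higher on the log2(TPM + 1) scale. With desflurane, *Mt1* was 4.63 times and *Mt2A* 7.71 times the control level (2.20 and 2.94). These were the only 2 members called higher with either agent, beside 5.04% of all tested genes with sevoflurane and 4.1% with desflurane. No member was called lower, beside 3.71% and 5.55% of all genes. With the 9201 expressed genes ordered by log2 difference, *Mt2A* and *Mt1* stood at ranks 3 and 6 with sevoflurane and at ranks 23 and 59 with desflurane.

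The controls were then compared with each other. They differ in the agent that had been breathed until consciousness was lost, but also in the animal and the library. With 1 library each, these cannot be told apart. *Mt1* was 10.7 times and *Mt2A* 17.6 times higher in desflurane 0 h than in sevoflurane 0 h, a log2(TPM + 1) difference of 3.32 and 3.96. These were the largest differences between the controls among the expressed genes, with *Mt2A* at rank 1 and *Mt1* at rank 2. Of all tested genes, 1.96% were called higher and 0.799% lower in the desflurane control, and the other 5 members that could be called were in neither set. The difference between controls was larger than the whole change of either gene with desflurane.

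For both genes, the 6 h libraries lay closer together than the controls did. *Mt1* was 1.53 times and *Mt2A* 1.63 times higher in desflurane 6 h than in sevoflurane 6 h, and neither passed the rule, which called 2.21% of genes higher and 1.77% lower. A ratio above 1.5 in place of 2 would have called both. Among the 9201 expressed genes, *Mt2A* stood at rank 246 and *Mt1* at rank 363 in this comparison. The log2 change with desflurane minus that with sevoflurane was -2.70 for *Mt1* and -3.25 for *Mt2A*. By arithmetic this is the difference between the 6 h libraries (0.61 and 0.71) less the difference between the controls (3.32 and 3.96), so the controls set its sign.

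Because the control decides the size of the change, each 6 h library was also set against the control of the other agent. Sevoflurane 6 h was 3.02 times desflurane 0 h for *Mt1* and 4.72 times for *Mt2A*. Desflurane 6 h was 49.3 times sevoflurane 0 h for *Mt1* and 136 times for *Mt2A*. Thus the ratio for *Mt1* ranged from 3.02 to 49.3 and that for *Mt2A* from 4.72 to 136 over the 4 possible pairs, all in the same direction. In both genes the lower 6 h library was more than 2 times the higher control, which held for 1.86% of all genes above a TPM of 2 in any library.

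**Figure D2:**
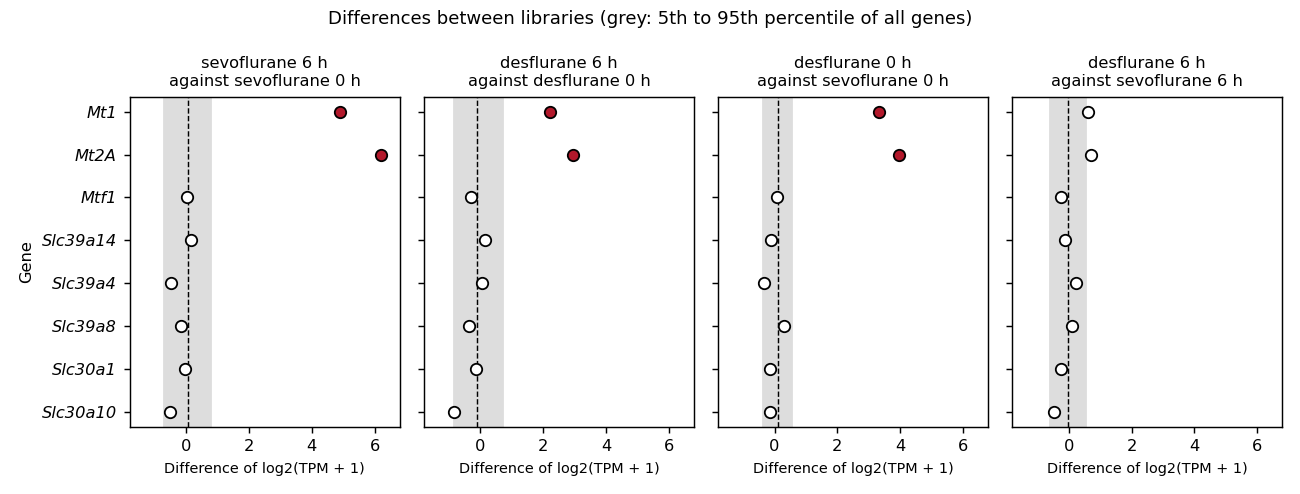
Difference of log2(TPM + 1) for the 8 genes in 4 comparisons, 1 panel each; filled points were called, the dashed line is the median of the 9201 expressed genes and the grey band their 5th to 95th percentile. *Mt1* and *Mt2A* lie far to the right of the band in the first 3 panels and just beyond it in the last (0.61 and 0.71), and the other genes lie within or at the edge of the bands.

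The balance between both metallothioneins shifted with their level. The ratio of *Mt2A* to *Mt1* within a library, which does not depend on how the library was scaled, was 0.53 in sevoflurane 0 h, 0.88 in desflurane 0 h, 1.37 in sevoflurane 6 h and 1.46 in desflurane 6 h. *Mt1* was therefore the more abundant transcript in both controls and *Mt2A* in both 6 h libraries. Their summed TPM was 20.2, 263, 1004 and 1598 in that order, or 0.00263%, 0.0334%, 0.129% and 0.207% of the TPM of all named genes. By level, *Mt2A* moved from rank 4755 of all named genes in sevoflurane 0 h to rank 78 in desflurane 6 h, and *Mt1* from rank 3181 to rank 111. Reads shared with related sequences make the values uncertain to an unknown degree, since the RefSeq gene table names 4 *Mt1* pseudogenes and none of them has a row of its own in the deposited tables. The other metallothioneins of the same cluster, the brain form *Mt3* and the epithelial form *Mt4*, were listed at 0 in all 4 libraries.

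The change did not extend along the chromosome to every neighbor. Within 250 kb of the pair, 9 other named genes were annotated and 5 of them were expressed. The nearest expressed gene on one side was the nuclear pore gene *Nup93*, with a TPM of 3.67 in the sevoflurane control, 3.73 in sevoflurane 6 h, 3.54 in the desflurane control and 2.94 in desflurane 6 h. On the other side it was the Bardet-Biedl gene *Bbs2*, with 2.91, 4.60, 2.49 and 3.77 in that order. Neither was called in any comparison. At the far edge of the window, *Herpud1*, which serves the degradation of misfolded proteins of the endoplasmic reticulum, had a TPM of 64.1, 255, 122 and 307 and was called higher with both agents. *Ogfod1*, a ribosomal prolyl hydroxylase, went from 1.09 to 2.45 with sevoflurane, which passed the rule, and from 1.88 to 2.80 with desflurane, which did not. The remaining expressed neighbor, *Nudt21*, was called in no comparison. Its TPM was 15.9 in sevoflurane 0 h, 20.2 in desflurane 0 h, 21.1 in sevoflurane 6 h and 26.3 in desflurane 6 h. Between the controls no neighbor was called, and the differences of the 5 expressed neighbors ran from -0.17 to 0.92. *Herpud1*, *Ogfod1* and *Nudt21* followed the order of libraries seen for *Mt1* and *Mt2A*, as did 8.5% of expressed genes. *Nup93* and *Bbs2* did not.

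**Figure D3:**
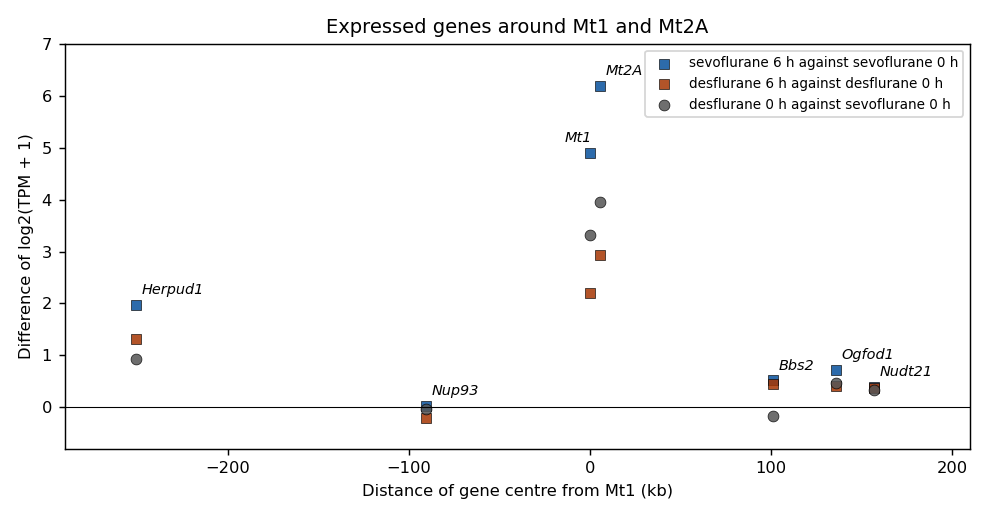
Difference of log2(TPM + 1) in 3 comparisons against distance from *Mt1* in kb, for the expressed named genes around it. *Mt1* and *Mt2A* stand above all 5 neighbors in each comparison, and *Herpud1* is the only neighbor above 1 (1.98 with sevoflurane and 1.32 with desflurane).

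The transcript of the regulator was scarce in every library. *Mtf1*, on chromosome 5 from 142797366 to 142842122, had a TPM of 0.77 in sevoflurane 0 h, 0.81 in sevoflurane 6 h, 0.87 in desflurane 0 h and 0.52 in desflurane 6 h. The mean coverage behind these values was between 1.81 and 3.01 per base, and the error that goes with it is unknown, as the tables hold no read counts. A further list of genes that have been linked to MTF1, with 9 of 10 expressed, had a median log2 difference of -0.33 with sevoflurane and 0.19 with desflurane, against 0.05 and -0.10 over all genes. Of 8 that could be called with sevoflurane, 0 were higher and 2 lower, the LIM protein gene *Csrp1* and the prion protein gene *Prnp*, beside 5.04% and 3.71% of all genes. With desflurane 0 of 9 were called in either direction, and between the controls 0 of 8. Between the 6 h libraries 2 of 9, *Ndrg1* and *Prnp*, were higher with desflurane, beside 2.21% of all genes, with a median of 0.23 against -0.03.

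No importer of the group was called in any comparison. *Slc39a14*, which carries zinc, manganese and iron into hepatocytes, lies on chromosome 15 from 51982982 to 52029816. Its TPM was 47.3 in sevoflurane 0 h, 52.6 in sevoflurane 6 h, 43.6 in desflurane 0 h and 48.3 in desflurane 6 h. It was 1.11 times its control with each agent, and the highest library was 1.21 times the lowest, a spread exceeded by 84.5% of the expressed genes. *Slc39a8*, a transporter of zinc and manganese on chromosome 2 from 241029669 to 241092389, had a TPM of 25.9, 23.1, 31.8 and 24.7 in the same order. It was highest in desflurane 0 h, and both 6 h libraries lay below both controls, at 0.89 and 0.78 times their own. *Slc39a4*, the zinc importer of the intestine whose loss causes acrodermatitis enteropathica in humans, lies on chromosome 7 from 117675730 to 117679903. Its TPM was 30.1, 21.3, 23.9 and 25.03, so it was 0.71 times its control with sevoflurane and 1.05 times with desflurane. Of the 5 enterocyte markers in the tables, whose TPM summed to between 384 and 554, 1 (*Lct*) was at 0 in all libraries and 2 were expressed. The sum thus rests almost wholly on those 2, and whether enterocytes were present was not tested.

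Neither exporter was called with either agent against its own control. *Slc30a1*, on chromosome 13 from 110677810 to 110681683, had a TPM of 39.7 in sevoflurane 0 h, 38.7 in sevoflurane 6 h, 35.98 in desflurane 0 h and 32.7 in desflurane 6 h. Its highest library was 1.22 times its lowest. *Slc30a10*, which exports manganese from hepatocytes, is annotated on the same chromosome from 103396295 to 103406759 and had a TPM of 23.2, 15.9, 20.8 and 11.2. Both 6 h libraries were thus below both controls, at 0.68 times the control with sevoflurane and 0.54 times with desflurane, and neither ratio passed the rule. Against the control of the other agent, desflurane 6 h stood at 0.48 times, which did pass it. The highest library of *Slc30a10* was 2.07 times the lowest, a spread exceeded by 17.6% of genes, whereas the median spread over all genes was 1.47.

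The value of *Slc30a10* also depended on where the gene was taken to end. A transcript assembled from the reads at this locus ran beyond the annotated end in 3 libraries, to 103410337 in sevoflurane 0 h, 103427935 in sevoflurane 6 h and 103424866 in desflurane 0 h, but ended with the annotation in desflurane 6 h. The assembled rows had a TPM of 30.3 in sevoflurane 0 h, 22.1 in sevoflurane 6 h, 31.1 in desflurane 0 h and 11.2 in desflurane 6 h. On these rows, which do not cover the same stretch in every library, *Slc30a10* was 0.73 times its control with sevoflurane and 0.36 times with desflurane. For 6 other members an assembled row covered the annotated gene in every library, and no other call changed when it was used. The assembled row of *Mt1* differed from the annotated one in sevoflurane 0 h alone (TPM 11.7 against 13.2), and for *Mt2A* both had the same value in all libraries. *Mtf1* was assembled in pieces, and no such value could be had.

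The remaining zinc transporters completed the picture of the families. All 14 *Slc39* genes and all 10 *Slc30* genes had a row, and of the 19 that are not members, 13 were expressed. Of these, 10 with sevoflurane and 11 in each of the other comparisons reached a TPM of 2 in the higher library, and 0 of those were called, where between 0.799% and 5.55% of all tested genes were called in a given direction. The others could not be called, such as *Slc30a3*, whose TPM was 0.53 in desflurane 0 h and 1.74 in desflurane 6 h. With so few genes, 0 calls is near what these shares would give. In desflurane 6 h against sevoflurane 6 h, *Slc39a13* stood at 1.86 times and *Slc39a3* at 0.62 times. With sevoflurane, *Slc39a3* was 1.84 times its control. The most abundant importer transcripts were those of *Slc39a1*, which serves the plasma membrane (TPM 46.3 to 55.0), *Slc39a14* and *Slc39a7*, which releases zinc from the endoplasmic reticulum (35.6 to 44.6). Among exporters *Slc30a1* led in every library, followed in 3 of the 4 by *Slc30a9* (18.0 to 24.6) and *Slc30a5* (17.8 to 22.6). *Slc39a2*, *Slc39a12* and *Slc30a8*, the zinc transporter of insulin granules, were listed at 0 throughout. The TPM summed over the *Slc39* family was 216 in sevoflurane 0 h, 218 in sevoflurane 6 h, 225 in desflurane 0 h and 205 in desflurane 6 h. Over the *Slc30* family it was 122, 129, 129 and 111. The median difference of the 13 transporters was 0.07 with sevoflurane, -0.12 with desflurane, 0.19 between the controls and -0.09 between the 6 h libraries, where the medians of all genes were 0.05, -0.10, 0.11 and -0.03.

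**Figure D4:**
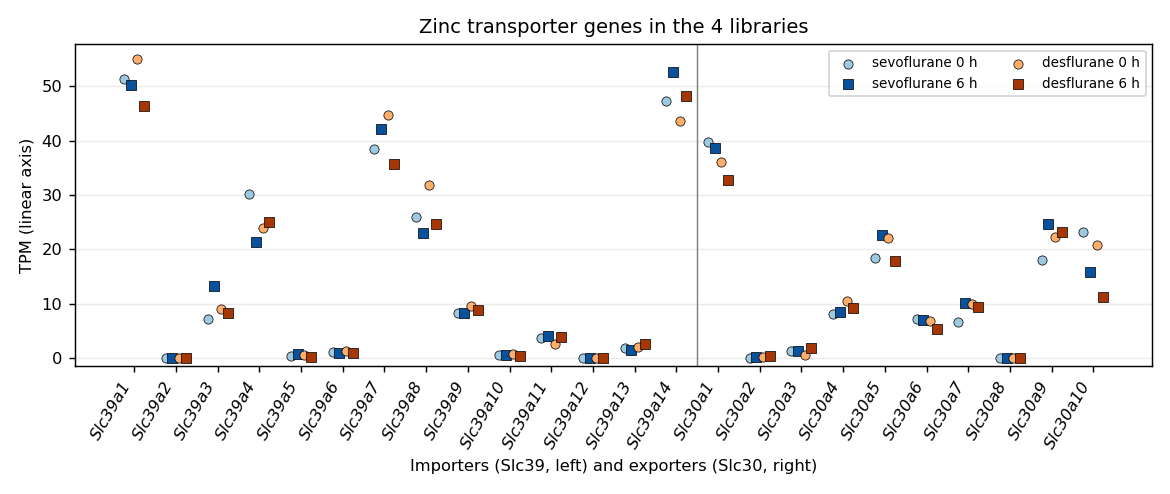
TPM (linear axis) of the 14 importer and 10 exporter genes in the 4 libraries, 1 point per library, with circles for 0 h and squares for 6 h. The summed TPM of the importers lay between 205 and 225 and that of the exporters between 111 and 129, and *Slc30a10* shows the widest relative range among the transporters of the group.

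Other genes of metal handling were examined as a list of 18 for copper and manganese, of which 17 were expressed. With each agent 0 of the 16 that could be called were higher and 2 lower, and these were *Steap3*, a metalloreductase, and *Xiap*, which also binds copper. The share of all genes called lower was 3.71% after sevoflurane and 5.55% after desflurane. Their median difference was -0.03 after sevoflurane and -0.18 after desflurane, against 0.05 and -0.10 over all genes. No gene of the list was called between the controls or between the 6 h libraries.

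A few genes had a profile over the 4 libraries close to that of the metallothioneins. Likeness was measured as the Euclidean distance between log2(TPM + 1) values centred on their mean, over 4 libraries and 8024 genes whose TPM averaged 2 or more. Between *Mt1* and *Mt2A* this distance was 1.11. The 5 genes nearest to *Mt1* outside the group were *Mfsd2a* at 1.25, *Hsd17b2* at 1.27, *Zfp354a* at 1.36, *Pla2g12a* at 1.72 and *Cpt1a* at 1.81. No gene was therefore nearer to *Mt1* than *Mt2A* was. *Mfsd2a*, a transporter of lysophospholipids, had a TPM of 10.9 in sevoflurane 0 h, 149 in sevoflurane 6 h, 35.2 in desflurane 0 h and 281 in desflurane 6 h. *Hsd17b2*, which oxidizes estradiol and testosterone, had 35.6, 747, 134 and 578 in that order. Both were higher in the desflurane control than in the sevoflurane control, as were the other genes nearest to either metallothionein. The genes were picked by their profile over these libraries, so this is no separate result. Nearest to *Mt2A* were *Zfp354a* (1.85), *Mfsd2a* (2.08), *Hsd17b2* (2.12), the clock output gene *Dbp* (2.40) and the uridine phosphorylase gene *Upp2* (2.45). With 4 libraries, such likeness rests on few points, and all profiles share the same libraries.

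Genes of signals to which metallothioneins are known to respond were counted in 3 lists. Of 18 glucocorticoid-responsive genes, 15 were expressed. After sevoflurane, 9 of these were called higher and 2 lower, beside 5.04% and 3.71% of all genes, with a median of 1.503 against 0.05. After desflurane the counts were 9 and 0, beside 4.1% and 5.55% of all genes, with a median of 1.45 against -0.10. Between the controls 2 of 14 were called higher in desflurane 0 h and 1 lower, beside 1.96% and 0.799% of all genes, with a median of 0.18 against 0.11. Between the 6 h libraries 4 of 15, *Sgk1*, *Dusp1*, *Igfbp1* and *Cdkn1a*, were higher with desflurane, beside 2.21% of all genes, with a median of 0.43 against -0.03. Of 20 genes of the acute phase and interleukin-6 response, 18 were used. Called higher were 2 after sevoflurane (5.04% of all genes), 2 after desflurane (4.1%), 3 in the desflurane control (1.96%) and 2 in desflurane 6 h against sevoflurane 6 h (2.21%). Called lower was 1, *Hamp*, which encodes the iron hormone hepcidin, after desflurane (5.55%). *Hamp* was also among the 3 called higher in the desflurane control, from which that fall was measured. Of 17 genes of oxidative stress, 16 were used. Called lower with both agents were 2, *Osgin1* and *Nfe2l2*, of 14 that could be called with sevoflurane (3.71% of all genes) and 15 with desflurane (5.55%). Called higher was 1 of 15, *Gsta3*, after desflurane (4.1%), in the desflurane control (1.96%) and in desflurane 6 h against sevoflurane 6 h (2.21%). The lists were chosen with earlier results of these data known, so their counts and medians are a description and no separate evidence of a signal. The part of these signals in the metallothionein values was not tested.

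Markers of other cell types were measured as well, since in bulk tissue fewer cells of a type and less RNA per cell cannot be told apart. The red cell markers, 7 of 8 in the tables and none of them at 0 in all libraries, summed to a TPM of 472 in sevoflurane 0 h, 758 in desflurane 0 h, 1261 in sevoflurane 6 h and 1401 in desflurane 6 h. This is the order of libraries seen for *Mt1* and *Mt2A*, over a range of values that was much narrower than theirs, and the part of blood in the result was not tested. *Hbb*, a beta globin gene, took most of that sum, with 291, 491, 797 and 872 in the same order. The markers of Kupffer cells and macrophages (7 of 8 in the tables) summed to between 232 and 312, those of the sinusoidal endothelium (6 of 7) to between 121 and 143 and those of stellate cells (all 7) to between 41.2 and 47.3. The sums of neutrophil markers (all 7, with *Mpo* and *Elane* at 0), of T and NK cell markers (all 7, with *Klrb1* at 0), of B cell markers (3 of 4) and of cholangiocyte markers (4 of 5) did not exceed 11.9 in any library. The 14 pancreatic acinar markers summed to between 25.7 and 32.1, with 1 expressed and *Prss1*, *Ctrb1* and *Pnlip* at 0. None of these other sums had the order of libraries of the metallothioneins.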

How the data were processed

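RNA sequencing of rat liver gave 4 libraries, 1 per group, grouped by their titles. The submitters' processing notes name HISAT2, SAMtools and StringTie and the build rn6, without versions. The handling of reads that map to several places is not given in the sources used here. Per the labels, the libraries came from a stranded total RNA kit. The authors deposited a StringTie gene table per library with coverage (mean depth per base, not scaled), FPKM and TPM. The deposited TPM column was handled as a score, since assembled rows alone sum to a full TPM total and named rows add between 0.766 and 0.789 of it. Only rows longer than 200 bp were kept and those of one symbol were summed, which left 16999 of 17455 symbols. Each member had 1 row.

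A pseudocount of 1 was used on the log2 scale. No p-value was computed. The rule of size was checked on made-up levels, whose set scatter was smaller than that between the controls. The check therefore does not show how often the rule calls a gene wrongly in these libraries. The 8 members, the gene lists and the named genes were chosen with earlier results of these data known. Genes named were the members, transporters called in any comparison or most abundant, the 5 nearest profiles for each metallothionein, and the called or nearest neighbors within 250 kb of it. *Mtf1*-linked, copper, red cell and other genes outside this rule were named after their values were seen. Promoters were read from RefSeq windows (GRCr8), cut to the 250 bases before the start, for the 5 members with an entry. Analyses used Python 3.11.15, pandas 2.3.3 and numpy 2.4.6. Alternatives changed the minimum TPM, the ratio, the pseudocount, the scaling, the control, the unit and the row used for a gene. The rows assembled from reads were added as an alternative after the data were seen.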

Additional observations from a re-analysis of the deposited data

Results flagged for a closer look

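The changes of *Mtf1* and *Slc39a4* had opposite signs with the agents. For *Mtf1* the log2 change with desflurane minus that with sevoflurane was -0.33, and for *Slc39a4* it was 0.54. The signs depended on the processing. With sevoflurane, *Mtf1* changed by 0.03 as reported, but by -0.0034 on FPKM and -0.05 against the other control, and with desflurane *Slc39a4* changed by 0.07 as reported but by -0.26 against the other control, so that the agents then had the same sign. Each agent had a single pair of libraries, so the difference was not tested, and neither gene was called with either agent. In sevoflurane 6 h alone, the assembly also placed an unstranded row between *Mt1* and *Mt2A*, on chromosome 19 from 11306435 to 11307019, at a TPM of 1.78 and a mean coverage of 6.08, and the controls have no row there.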

How the results depend on the processing

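With 1 library per group, the spread within a group is unknown. Of 42 recounts of the members called, 41 stayed within 1.5 times the reported count. The exception was desflurane 6 h against sevoflurane 6 h with a ratio above 1.5, which called 2 members in place of 0. Within that bound, some recounts with desflurane called 3 members in place of 2. They added *Slc30a10* as lower, with a ratio above 1.5, with the other control and on assembled rows. Taking the highest row alone could change no member, as each had 1 row. All 60 recomputed differences of *Mt1* and *Mt2A* kept their direction and their call. Some of them repeat the reported value and are no check. These are the values from the highest row alone and from the assembled row of *Mt2A*. The assembled row of *Mt1* also repeats it, except in the comparisons with sevoflurane 0 h. Of 236 recomputed differences of all members, 2 became past the rule (*Slc30a10* with desflurane, -0.99 against the other control and -1.39 on assembled rows) and 5 uncalled ones changed sign (2 of *Mtf1* and 1 each of *Slc39a4*, *Slc30a1* and *Slc30a10*). Scaling by the median of ratios shifted the median of all genes between the controls by -0.11, and the median of the other zinc transporters there, 0.19 as reported, was 0.0728. The ratio of *Mt2A* to *Mt1* was the same on coverage, but this is no check. Within a library, the TPM of both genes is their coverage times the same constant. No paired analysis was possible because no group had more than 1 library.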
